A study of Mus musculus with 43 samples.

Results

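The genes described here set, copy, remove or read methylation of cytosine in DNA: Dnmt1, Dnmt3a, Dnmt3b, Dnmt3l, Uhrf1, Tet1, Tet2, Tet3, Mbd3 and Tdg. These 10 genes were taken by symbol from a table of 22462 genes, and all 10 were found in it. The comparison was between control E14 cells, a mouse embryonic stem cell line (ES-E14TG2a) grown with serum and LIF on gelatin, and E14 cells with a knockout of MTF2, a DNA-binding Polycomb-like subunit of PRC2, the complex that methylates histone H3 at sites of gene silencing. The labels name no other difference between the groups, and do not say how the knockout was made or whether it is 1 clone. The series holds 43 samples, of which the 6 RNA-seq libraries, 3 control and 3 knockout, bear on these genes; ChIP-seq samples, including knockout cells with wild-type or K339A MTF2 put back, were not analysed here. Expression is given in FPKM, fragments scaled to transcript length and library size, as 1 value per gene and group that the authors pooled over their libraries. No SD over libraries can therefore be given, and the depth of each library is unknown.

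In embryonic stem cells DNA methylation is laid down on unmethylated sites by the de novo methyltransferases Dnmt3a and Dnmt3b, helped by Dnmt3l, a relative without catalytic activity. At replication Dnmt1 copies the pattern to the new strand, guided by Uhrf1, which binds hemimethylated DNA. The TET dioxygenases oxidise methylated cytosine, the glycosylase Tdg cuts out the more oxidised forms, and base excision repair restores the unmethylated base. Mbd3 belongs to the methyl-CpG binding domain family, although its own preference for methylated DNA is weak, and it is a core subunit of the NuRD remodelling and deacetylase complex.

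Polycomb-like proteins bind CpG-rich DNA and CpG is the site of DNA methylation, so the sequences just upstream of the starts of the genes that the results turn on are shown first. Each line below gives 200 bases of the gene's strand, 5′ to 3′, from 250 to 51 bases before a RefSeq start on GRCm38.p6, with every CpG in capitals. Dnmt3a has an upstream start for its long form and an internal start for the short form known from embryonic stem cells. RefSeq lists 3 starts for Dnmt3a, and the first upstream start and the internal one are shown beside Mbd3, Dnmt3b and Dnmt3l.
Dnmt3a, upstream start, chr12:3806730-3806929, plus strand: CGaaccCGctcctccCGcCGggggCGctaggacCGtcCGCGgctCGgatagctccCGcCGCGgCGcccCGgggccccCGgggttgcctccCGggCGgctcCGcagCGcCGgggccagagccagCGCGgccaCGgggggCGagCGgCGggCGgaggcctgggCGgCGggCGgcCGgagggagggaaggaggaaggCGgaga
Dnmt3a, internal start, chr12:3891494-3891693, plus strand: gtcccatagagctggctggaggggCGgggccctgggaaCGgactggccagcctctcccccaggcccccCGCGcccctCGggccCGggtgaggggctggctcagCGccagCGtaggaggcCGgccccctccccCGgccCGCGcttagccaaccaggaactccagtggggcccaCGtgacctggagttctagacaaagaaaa
Mbd3, chr10:80399582-80399781, minus strand: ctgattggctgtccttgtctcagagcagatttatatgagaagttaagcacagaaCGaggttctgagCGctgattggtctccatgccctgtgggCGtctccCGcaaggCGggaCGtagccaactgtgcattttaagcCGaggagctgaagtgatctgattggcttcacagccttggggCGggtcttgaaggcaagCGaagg
Dnmt3b, chr2:153649199-153649398, plus strand: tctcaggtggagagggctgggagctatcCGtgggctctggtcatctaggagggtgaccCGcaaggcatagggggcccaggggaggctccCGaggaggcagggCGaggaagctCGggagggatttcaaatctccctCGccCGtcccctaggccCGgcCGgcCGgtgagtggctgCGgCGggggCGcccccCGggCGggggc
Dnmt3l, first listed start, chr10:78042037-78042236, plus strand: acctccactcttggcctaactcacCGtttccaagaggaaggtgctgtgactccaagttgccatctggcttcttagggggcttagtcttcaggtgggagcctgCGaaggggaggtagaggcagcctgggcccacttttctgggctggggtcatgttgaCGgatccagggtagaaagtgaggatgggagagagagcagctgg

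The upstream Dnmt3a window held 32 CpG, a number that 1.36% of 32851 RefSeq windows of this length reach or exceed. The window of the second upstream start of Dnmt3a, 180 bases further on and overlapping the first, held 34 CpG, which 0.813% of windows reach. The internal Dnmt3a window held 13 CpG, which 22.1% of windows reach. Dnmt3b had 15 CpG, which 17.8% of windows reach, and Mbd3 had 9, which 32.1% reach. Dnmt3l had 3 CpG in the window printed, against a median of 4 over all windows, and 89.1% of windows held at least 1. Among the windows not printed, that of Tet2 was the densest, with 41 CpG, and only 0.0761% of windows have as many. A relation between CpG content and fold change was not tested. The FPKM values are per gene, so the starts of Dnmt3a are not told apart in them.

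The targeted gene was checked first. Mtf2 stood at 74.3 FPKM in control cells and 44.7 FPKM in the knockout, with q = 0.0496 in the authors' deposited table, so its transcript was lower but still present in the libraries labelled knockout. The locus entry of Mtf2 is shared with Tmed5. A gene is called here when the authors' Cuffdiff test gave it a q at or under 0.05 over the 11362 genes tested. That rule called 12.9% of them, with 6.9% higher and 6.03% lower in knockout cells. All 7 embryonic stem cell markers were detected in both groups, with a summed level of 3710 FPKM in control cells and 3218 FPKM in the knockout, 1 called higher (Tdgf1) and 0 lower. Of 10 primitive endoderm markers 8 were called higher and 0 lower, and their summed level was 50.5 FPKM in control cells and 632 FPKM in the knockout. Of 6 primed epiblast markers, Dnmt3b among them, 5 were tested, with 2 called higher and 0 lower. Their summed level was 81.0 FPKM in control cells and 242 FPKM in the knockout. The 2 called, Krt18 (9.55 and 117 FPKM) and Cldn6 (4.71 and 74.9 FPKM), carried the rise of that sum. Otx2 (8.01 and 5.48 FPKM) and Dnmt3b (52.5 and 36.1 FPKM) were lower and Pou3f1 (6.08 and 6.66 FPKM) higher, all without a call. Fgf5, not tested, stood at 0.117 and 1.72 FPKM. The 5 markers of the two-cell-like state were listed at 0 in both groups. The 6 fibroblast markers summed to 44.2 FPKM in control cells and 31.0 FPKM in the knockout. Fbln1 was called lower, Col3a1 and Twist2 were listed at 0 in both groups, and the other 3 were higher in knockout cells without a call: Thy1 (5.14 and 11.4 FPKM), Col1a1 (0.142 and 0.773 FPKM) and Col1a2 (0.0599 and 0.241 FPKM).

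Of the 10 genes, 9 were tested, and 2 of them were called lower: Dnmt3a and Mbd3. That is a share of 22.2%, against 12.9% of all tested genes called and 6.03% called lower. None of the 9 was called higher by Cuffdiff, and 0 had a higher level at an unadjusted p under 0.05, while 3 had a lower one. That unadjusted rule took 12.7% of all tested genes as higher and 13.0% as lower, and counts by it below are to be read against these shares. The median log2 ratio of the 9 was -0.09, against -0.0035 over all tested genes. Ratios are log2((knockout FPKM + 0.5)/(control FPKM + 0.5)), which understates differences of low genes. Of the tested genes 6 had a ratio below 0 and 3 above 0, but when both groups were scaled to the same summed FPKM, which adds 0.15 to a ratio, 3 were below 0 and 6 above. Only the signs of Dnmt3l, Tet2 and Tet3, all close to 0, depended on that scaling.

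**Figure D1:**
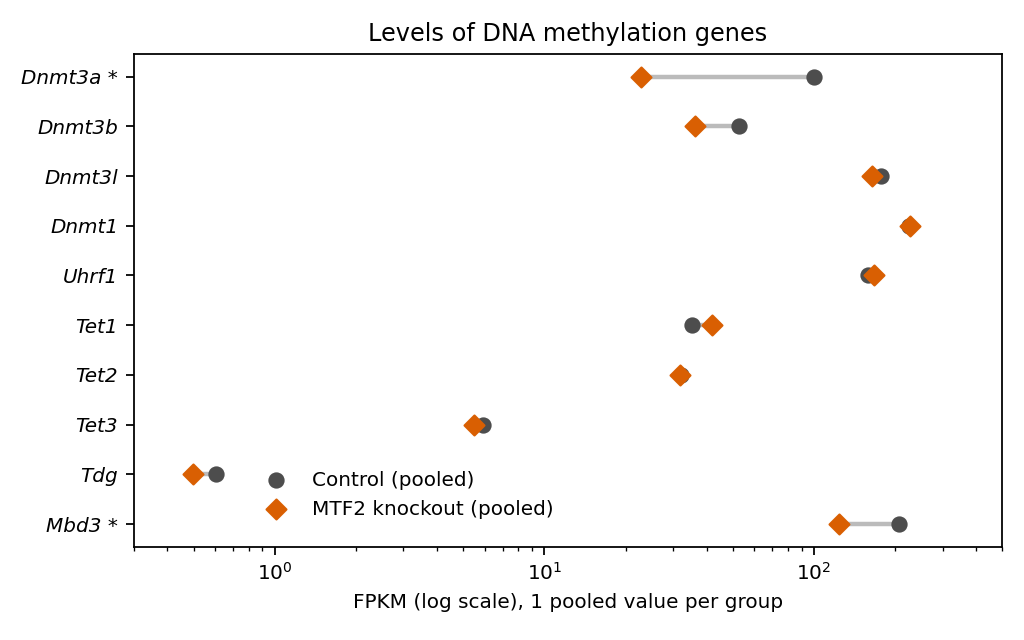
FPKM of the 10 genes on a log axis, with 1 pooled value for control cells (grey circle) and 1 for MTF2 knockout cells (orange diamond) joined by a line. An asterisk marks a gene called by the authors' test. Dnmt3a stands at 100.4 and 22.7 FPKM, Mbd3 at 207 and 124 FPKM, while the symbols of Dnmt1, Uhrf1, Dnmt3l, Tet2 and Tet3 nearly coincide.

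The de novo methyltransferase Dnmt3a (ENSMUSG00000020661.15, chromosome 12, 3807030 to 3914443, mm10) showed the largest difference of the group. It stood at 100.4 FPKM in control cells and 22.7 FPKM in knockout cells, which is 22.6% of the control level, or 4.42-fold lower. Its log2 ratio was -2.12, and in the authors' deposited table its q was 0.0012, the smallest q the table gives, shared by 472 genes. Only 101 of the 11362 tested genes, or 0.889%, had a lower ratio. Among genes at 1 FPKM or more in either group, its level went from percentile 91.4 to percentile 68.7. The error of a log2 fold change can be read from the deposited table as the fold change divided by its test score, and for Dnmt3a it was 0.47. With a normal error assumed, that gives a 95% interval of -3.07 to -1.21 for its log2 fold change. Intervals made this way are wider than the authors' p-values imply. Dnmt3a was the 1 member still called lower at a q of 0.01, where 2.96% of tested genes were, and with a 2-fold minimum, where 2.8% were. It was also the 1 member called lower when a normal p was computed from the deposited score (q = 0.0014 over all tested genes), a rule that called 0.255% of them lower. In bulk RNA, fewer cells of a type and less RNA per cell cannot be told apart. All 10 primitive endoderm markers were higher in the knockout, 8 of them with a call, and their part in the lower Dnmt3a level was not tested.

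Dnmt3b (chromosome 2, 153649450 to 153687730), the other catalytic de novo enzyme, was not called. Its level was 52.5 FPKM in control cells and 36.1 FPKM in the knockout, a log2 ratio of -0.53. In the authors' deposited table its p was 0.0173 before and its q 0.0970 after adjustment over all genes. The interval of its log2 fold change, -1.30 to 0.22, is wider than that p implies, and included 0 but also a loss of more than 2-fold. Dnmt3l (chromosome 10, 78030022 to 78063622), the cofactor of both enzymes, stood at 178 and 165 FPKM, with q = 0.797 in the authors' deposited table and an interval of -0.85 to 0.63. Its locus entry is shared with Aire.

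The makeup of the de novo class therefore differed between the groups. In control cells Dnmt3a stood 1.91 times as high as Dnmt3b, and in knockout cells 0.630 times as high. Dnmt3a made up 65.7% of the summed FPKM of both enzymes in control cells and 38.6% in knockout cells. That sum was 153 FPKM in control cells and 58.9 FPKM in the knockout, 38.5% of the control level. Dnmt3l was 1.77 times as high as Dnmt3a in control cells and 7.25 times as high in knockout cells. With no values per library, these shares have no error, and whether the fold changes of Dnmt3a and Dnmt3b differ was not tested.

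**Figure D2:**
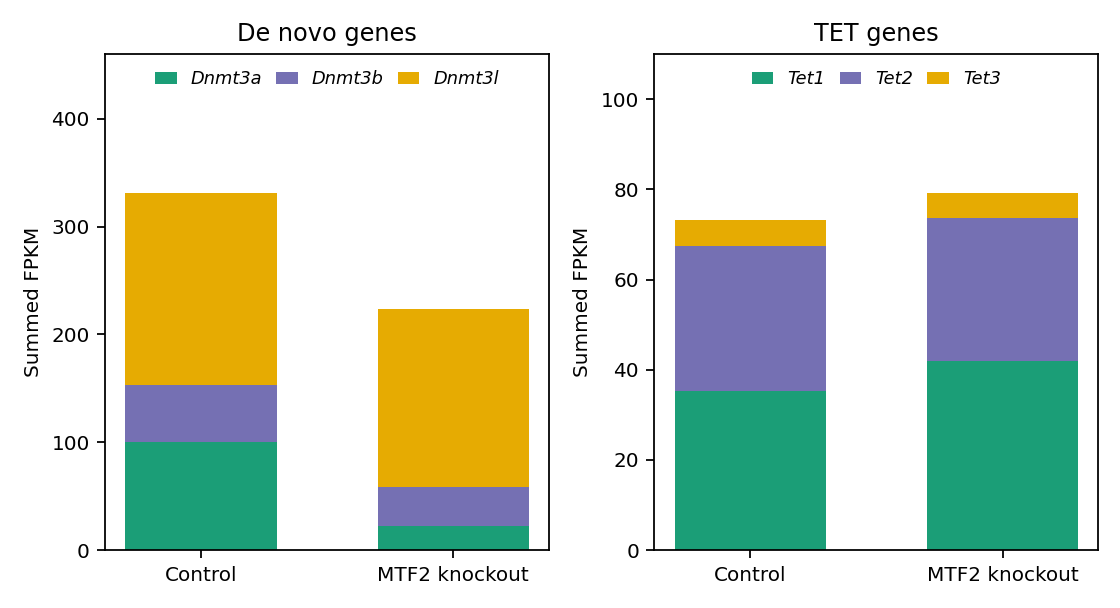
Summed FPKM of the de novo genes Dnmt3a, Dnmt3b and Dnmt3l (left) and of the TET genes (right), stacked by gene, for control and MTF2 knockout cells, with 1 pooled value per gene and group. The Dnmt3a block shrinks from 100.4 to 22.7 FPKM while Dnmt3l remains the main part of its stack, and the TET stacks reach 73.3 and 79.1 FPKM.

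The maintenance genes were at nearly equal levels in both groups. Dnmt1 (chromosome 9, 20907209 to 20959888), the maintenance methyltransferase, had the highest level of the 10 genes in both groups, 224 FPKM in control cells and 227 FPKM in the knockout. Its q was 0.970 in the authors' deposited table, and the interval of its log2 fold change was -0.75 to 0.79. Uhrf1 (chromosome 17, 56303321 to 56323486), which brings Dnmt1 to replicated DNA, stood at 159 and 167 FPKM, with q = 0.874 in the authors' deposited table and an interval of -0.66 to 0.80. Neither was called, but both intervals also hold changes of more than 0.5 on the log2 scale in either direction. Dnmt1 was 1.41 times as high as Uhrf1 in control and 1.36 times as high in knockout cells. Against Dnmt3a, Dnmt1 was 2.23 times as high in control cells and 10.0 times as high in knockout cells. Of the summed FPKM of Dnmt1, Dnmt3a and Dnmt3b, Dnmt1 made up 59.5% in control and 79.4% in knockout cells.

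None of the genes that remove methylation was called by Cuffdiff, and 0 of the 3 tested had an unadjusted p under 0.05. Tet1 (chromosome 10, 62804570 to 62899118), a TET enzyme with a CXXC domain that binds unmethylated CpG, stood at 35.4 FPKM in control cells and 41.8 FPKM in the knockout. In the authors' deposited table its q was 0.496, and the interval of its log2 fold change was -0.48 to 0.97. Tet2 (chromosome 3, 133463679 to 133544390), which lacks that domain, stood at 32.0 and 31.8 FPKM, with q = 0.984 in the authors' deposited table and an interval of -0.73 to 0.71. Tet3 (chromosome 6, 83362373 to 83456392), known for its role in the zygote, was far lower, at 5.90 and 5.50 FPKM, with q = 0.868 in the authors' deposited table and an interval of -1.12 to 0.92. The 3 TET genes summed to 73.3 FPKM in control cells and 79.1 FPKM in the knockout. Tet1 made up 48.3% of that sum in control and 52.9% in knockout cells, Tet2 43.7% and 40.2%, and Tet3 8.05% and 6.94%.

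Tdg (chromosome 10, 82629828 to 82690650) was listed at 0.608 FPKM in control cells and 0.496 FPKM in the knockout and was not tested by the authors. Tdg is known to have processed pseudogenes in the mouse genome, and the sources used here do not say how reads matching several copies were counted, so its level is uncertain. Its locus entry is also shared with Glt8d2.

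Mbd3 (ENSMUSG00000035478.14, chromosome 10, 80392539 to 80399550) was the other gene called lower. It stood at 207 FPKM in control cells and 124 FPKM in the knockout, 59.8% of the control level and a log2 ratio of -0.74. Its q was 0.0137 in the authors' deposited table. Unlike that of Dnmt3a, this call did not hold at a q of 0.01, with a 2-fold minimum or with the normal p computed from the score (q = 0.640 over all tested genes). The interval of its log2 fold change from that score was -1.50 to 0.014. Even at the lower level Mbd3 lay at percentile 93.8 of expressed genes in knockout cells.

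**Figure D3:**
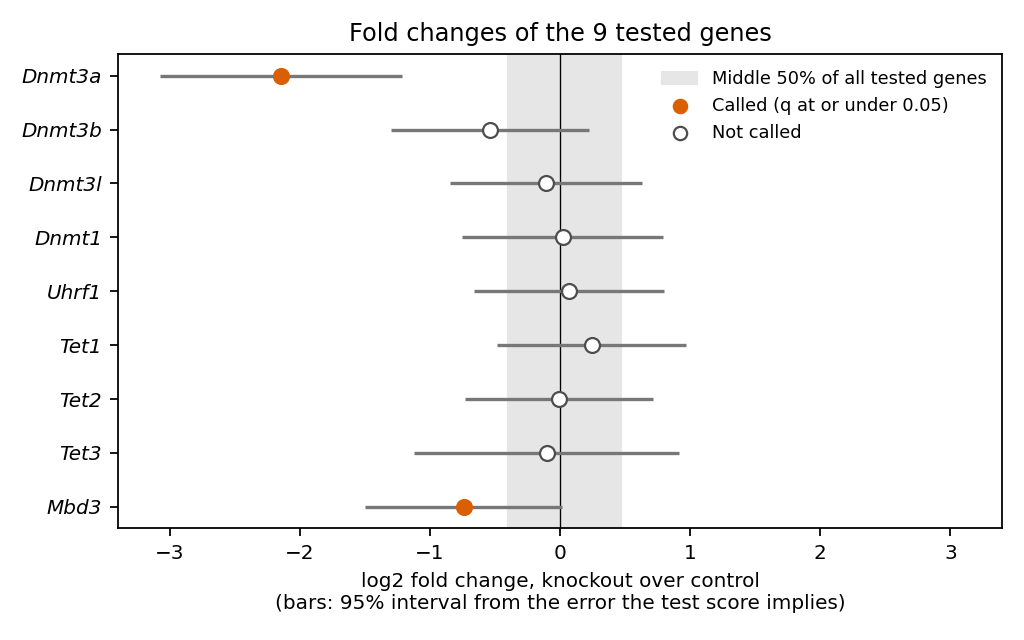
Deposited log2 fold change (knockout over control) of the 9 tested genes, filled where called, with bars for the 95% interval from the error that the deposited test score implies. The grey band is the middle 50% of the log2 ratios of all tested genes. Dnmt3a lies at -2.14 with its whole bar below 0, the bar of Mbd3 ends at 0.014, and all other bars cross 0.

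The order of the levels differed between the groups. In control cells it ran Dnmt1, Mbd3, Dnmt3l, Uhrf1, Dnmt3a, Dnmt3b, Tet1, Tet2, Tet3 and Tdg. In knockout cells it ran Dnmt1, Uhrf1, Dnmt3l, Mbd3, Tet1, Dnmt3b, Tet2, Dnmt3a, Tet3 and Tdg, so that Dnmt3a went from rank 5 to rank 8 and Mbd3 from rank 2 to rank 4. Without a spread over libraries, which neighbours in these orders differ beyond replicate error was not tested.

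Over chromosome 14, which holds none of the 10 genes, the median ratio of 405 expressed genes was 0.71, so a gene can differ along with its neighbourhood. The genes around each member were therefore measured too. Within 1 Mb of Dnmt3a lay 16 other genes at 1 FPKM or more in either group, with a median log2 ratio of 0.11. Within 0.5 Mb the median of 10 genes was -0.03. Of the 16, 1 was called higher and 0 lower, and 0 had a ratio as low as that of Dnmt3a. The nearest by gene midpoint, Pomc and Dtnb, had ratios of -1.18 and -0.71 without a call. The next, Dnajc27, had 0.02. Mbd3 lies in a gene-dense part of chromosome 10, with 91 such neighbours and a median of -0.28. There 16 of 89 tested neighbours were called lower and 6 higher, and 12 of the 91 had a ratio below that of Mbd3. Over all tested genes 6.03% were called lower and 6.9% higher, the shares for the neighbours of Dnmt3a too. Neighbours of Dnmt1 (median -0.29 over 47 genes) and Uhrf1 (-0.26 over 47 genes) had similar medians, although these genes had ratios of 0.02 and 0.07. The median of chromosome 10 as a whole was -0.02, and that of chromosome 12 was -0.04. The part of the neighbourhood in the Mbd3 value was not tested.

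**Figure D4:**
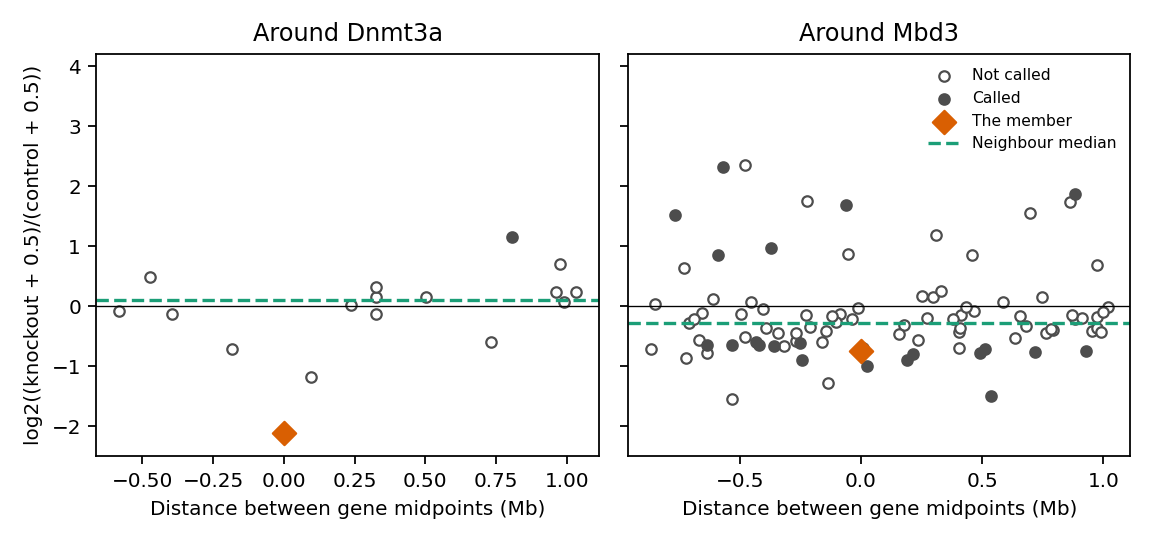
Log2 ratios of genes at 1 FPKM or more within 1 Mb of Dnmt3a (left, 16 genes) and Mbd3 (right, 91 genes) against the distance between gene midpoints, with the member as an orange diamond, called neighbours filled and the neighbour median as a dashed line. Dnmt3a lies below all of its neighbours, and Mbd3 lies within the cloud of its own, whose median is -0.28.

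Among called genes whose control level lay within 2-fold of that of Dnmt3a, 288 in all, those with the nearest log2 ratio over the 2 pooled groups were Aard, Mospd3, Crabp1, Tcf15 and Hmgb2. Aard stood at 50.4 FPKM in control cells and 10.8 FPKM in the knockout, a ratio of -2.18. Mospd3 stood at 65.5 and 16.5 FPKM (-1.96), and the retinoic acid-binding gene Crabp1 at 106 and 30.4 FPKM (-1.79). The transcription factor gene Tcf15 stood at 150.0 and 45.8 FPKM (-1.70), and the chromatin protein gene Hmgb2 at 79.6 and 27.1 FPKM (-1.54). With 1 value per group this likeness is a matter of size only. Medians of expressed neighbours within 1 Mb were -0.52 for Hmgb2 (4 genes) and -0.28 for Mospd3 (42 genes). They were 0.04 for Aard, 0.21 for Crabp1 and 0.07 for Tcf15, against 0.11 for Dnmt3a.

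Related genes were taken from 7 lists. The first held the other methyl-CpG binding proteins and zinc finger readers of methylated DNA. Of 9 tested, 0 were called higher and 1 lower by Cuffdiff, a share of 11.1% against 12.9% of all tested genes. At an unadjusted p under 0.05, 0 were higher and 1 lower. The list median was 0.16 as deposited and 0.28 with equal summed FPKM. The called gene was Mbd6, a family member not known for binding methylated DNA, which fell from 42.4 to 24.6 FPKM (log2 ratio -0.77, q = 0.0078 in the authors' deposited table). Uhrf2, the paralogue of Uhrf1, stood at 25.5 and 17.0 FPKM, with q = 0.342 in the authors' deposited table. The gene of the reader Kaiso, Zbtb33, stood at 0.786 and 1.58 FPKM and was not called.

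The NuRD partners of Mbd3 moved in both directions: of 13 tested, 3 were called higher and 1 lower, a share of 30.8% against 12.9% of all tested genes. By the unadjusted rule 3 were higher and 2 lower. Gatad2a, which links Mbd3 to the remodelling ATPase, fell from 317 to 124 FPKM (log2 ratio -1.36, q = 0.0012 in the authors' deposited table). The neighbours of Gatad2a on chromosome 8 had a median ratio of -0.29 within 1 Mb and 0.10 within 0.5 Mb. The main ATPase gene in these cells, Chd4, stood at 307 and 205 FPKM and was not called (q = 0.113 in the authors' deposited table). Its paralogues rose from low levels, Chd3 from 3.49 to 14.1 FPKM and Chd5 from 4.40 to 11.7 FPKM, both with q = 0.0012 in the authors' deposited table. The locus entry of Chd3 is shared with Gm17305. The deacetylase gene Hdac2 rose from 34.5 to 70.3 FPKM (log2 ratio 1.01, q = 0.0022 in the authors' deposited table). The histone-binding subunit gene Rbbp7 (75.9 and 75.6 FPKM) and Cdk2ap1 (20.4 and 13.9 FPKM) were not called. The list median was 0.17 as deposited and 0.32 with equal summed FPKM.

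The CXXC proteins bind unmethylated CpG. Of 6 tested, 0 were called higher and 1 lower by Cuffdiff, a share of 16.7% against 12.9% of all tested genes. At an unadjusted p under 0.05, 0 were higher and 2 lower. Their list median was -0.37 as deposited and -0.22 with equal summed FPKM. Cxxc5, related to the CXXC domains of the TET genes, fell from 66.2 to 40.8 FPKM (q = 0.0229 in the authors' deposited table). The methyltransferase gene Kmt2b (31.5 and 22.3 FPKM), Kdm2b (31.7 and 24.4 FPKM), which brings PRC1 to CpG islands, and Fbxl19 (178 and 138 FPKM) and Cxxc1 (56.4 and 60.7 FPKM) were not called.

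In the list of targeting factors and cofactors, Cuffdiff called 1 of 19 tested genes higher and 2 lower. That is a share of 15.8% against 12.9% of all tested genes. By the unadjusted rule 2 were higher and 5 lower. The list median was -0.05 as deposited and 0.10 with equal summed FPKM. Hells, a remodelling ATPase needed for DNA methylation of repeats, fell from 65.2 to 34.2 FPKM (log2 ratio -0.92, q = 0.0012 in the authors' deposited table). Cdca7l, a paralogue of the Hells partner Cdca7, fell from 10.9 to 4.88 FPKM (q = 0.0251 in the authors' deposited table). The locus entry of Cdca7l is shared with Dnah11. Atrx, a heterochromatin remodeller, rose from 4.08 to 7.49 FPKM (q = 0.0101 in the authors' deposited table). Trim28, the corepressor that Zfp57 brings to imprinted regions, stood at 563 and 380 FPKM (q = 0.0877 in the authors' deposited table), and the replication clamp gene Pcna at 679 and 657 FPKM. The histone methyltransferase genes Nsd2 (5.84 and 13.0 FPKM) and Setd2 (8.08 and 12.3 FPKM) were not called.

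Of 15 tested base excision repair and Gadd45 genes, 2 were called higher and 1 lower, a share of 20% against 12.9% of all tested genes. By the unadjusted rule 4 were higher and 2 lower. The list median was -0.05 as deposited, 0.08 with equal summed FPKM and -0.16 with 1 FPKM or more required in both groups. The endonuclease gene Apex1 rose from 232 to 434 FPKM (q = 0.0030 in the authors' deposited table) and the glycosylase gene Neil2 from 1.27 to 7.72 FPKM (q = 0.0240 in the authors' deposited table). Both lie on chromosome 14, where the medians of their neighbours within 1 Mb were 1.12 and 1.26 and that of the chromosome 0.71. The locus entry of Apex1 is shared with Tmem55b. Gadd45b, a stress gene linked to demethylation, fell from 35.1 to 12.2 FPKM (q = 0.0251 in the authors' deposited table). It lies near Mbd3, and its neighbours had a median of -0.29. Gadd45g stood at 0.0596 and 6.25 FPKM without a call (q = 0.496 in the authors' deposited table). The repair genes Parp1 (468 and 328 FPKM), Ung (171 and 130.1 FPKM) and Neil3 (2.65 and 1.10 FPKM) were not called.

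Genes that supply the methyl donor of the methyltransferases and the oxoglutarate used by TET enzymes had 2 of 13 tested called higher and 0 lower by Cuffdiff. That is a share of 15.4% against 12.9% of all tested genes. At an unadjusted p under 0.05, 5 were higher and 3 lower. The median was -0.09 as deposited and 0.06 with equal summed FPKM. Tdh, the threonine dehydrogenase that feeds 1-carbon metabolism in mouse embryonic stem cells, rose from 73.1 to 253 FPKM, and Gldc of the glycine cleavage system from 72.7 to 149 FPKM, both with q = 0.0012 in the authors' deposited table. Tdh also lies on chromosome 14, where its neighbours had a median of 1.16. Shmt1 (95.6 and 58.4 FPKM), Shmt2 (180 and 271 FPKM), Mthfd1 (167 and 119 FPKM) and Idh1 (26.97 and 16.3 FPKM) were not called.

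The last list held 18 germline genes whose promoters are kept silent by DNA methylation in many cell types. Only 7 were tested, and the other 11 stood at or under 1.01 FPKM (Dazl in control cells), so the tested ones do not stand for the list. 0 of the 7 were called higher by Cuffdiff and 2 lower, a share of 28.6% against 12.9% of all tested genes. At an unadjusted p under 0.05, 0 were higher and 3 lower, and the median of the 7 was -1.14. With 1 FPKM or more required in both groups, which leaves out Stra8 and Tuba3b, it was -0.52. Tuba3a fell from 59.2 to 5.86 FPKM (q = 0.0012 in the authors' deposited table). Stra8 was listed at 12.1 FPKM in control cells and at 0 in knockout cells, also with q = 0.0012 in the authors' deposited table. Mael stood at 6.43 and 1.57 FPKM (q = 0.0646 in the authors' deposited table), Tuba3b at 1.40 and 0.358 FPKM and Piwil2 at 6.45 and 4.33 FPKM. These values went along with the lower Dnmt3a level in the same libraries, and a relation between them was not tested.

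**Figure D5:**
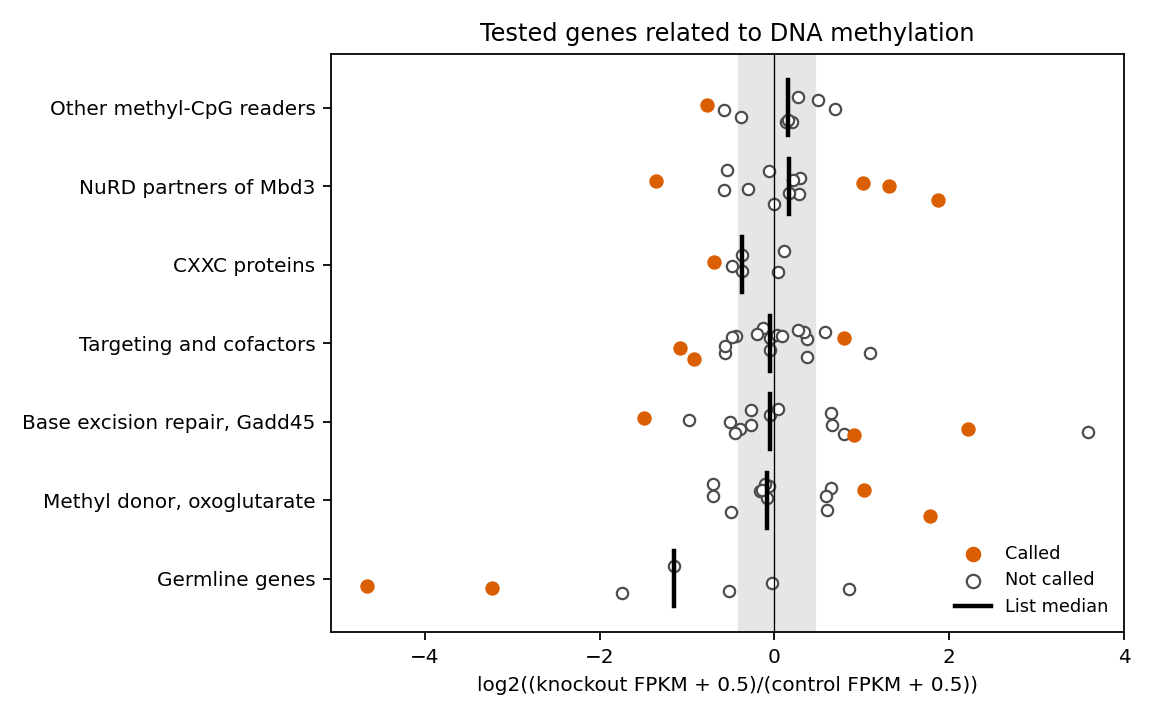
Log2 ratios of the tested genes in the 7 related lists, 1 point per gene, filled where called, with a black bar at each list median and a grey band for the middle 50% of all tested genes. The NuRD partners have calls on both sides, and the germline genes have the lowest median, -1.14 over 7 tested genes and -0.52 where 1 FPKM or more was required in both groups.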

How the data were processed

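Per the labels' protocols, the 3 control and 3 knockout RNA-seq libraries were made from RNA selected for poly(A) tails on oligo-dT beads. The submitters' processing notes name TopHat2 2.1.0, Cuffdiff 2.2.1.3, Bowtie 1.0, deepTools, mm9 and mm10, with no role given. Per the file headers, the authors deposited FPKM as 1 value per gene and group. The log2 fold change (knockout over control), the test score and the p-value and q-value were also deposited by the authors. The deposited q matched a Benjamini-Hochberg adjustment over the 11362 tested genes to within 5.2e-07.

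Computed here (Python 3.11.15, pandas 2.3.3, scipy 1.17.1) were log2 ratios with a pseudocount of 0.5 FPKM, the error that fold change and score imply, and medians, counts and neighbours within 1 Mb. Intervals assume a normal error. The deposited p called 1469 genes and normal p from the score 124, so intervals are wider than the calls imply. The adjustment and call rule were tested on simulated data. Of 22462 genes, 11098 (status NOTEST) and 2 (FAIL) were not tested. Coordinates are given as mm10. Of 21120 symbols matched to RefSeq on GRCm38.p6, 70.1% had both ends within 2 kb. On the same chromosome lay 99.99%, a share that does not tell mm9 from mm10. Promoter sequences are from RefSeq, with all 10 genes matched. Depth per library is unknown.

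The members and lists were chosen with earlier results of these data known. Named were all members, each called gene of a related list, up to 2 uncalled genes with the largest ratio and up to 2 with the highest level per list, and the 5 called genes most like Dnmt3a. Ahcy, Kmt2a, Dppa3, Cxxc4 and Dazl were named after their values were seen. Some genes that this rule takes are not reported here. ChIP-seq samples were not analysed. Alternatives were a q of 0.01, a 2-fold minimum, a filter at 1 FPKM, normal p from the score, pseudocounts of 0.1 and 1, other scalings and a window of 0.5 Mb.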

Additional observations from a re-analysis of the deposited data

How the results depend on the processing

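No paired analysis was possible because the table holds 1 pooled value per group, and leaving out replicates was not run for the same reason. Of the members, 2 were called lower as deposited, and 1 (Dnmt3a) at a q of 0.01, 1 with a 2-fold minimum and 1 when a normal p was computed from the score. The same rules, in this order, called 6.03%, 2.96%, 2.8% and 0.255% of all tested genes lower. Over all tested genes that normal p left 124 calls against 1469, so calls other than the largest depend on the authors' p. At a q of 0.01 the calls went from 1 to 0 in the CXXC list, from 3 to 1 among targeting factors and from 3 to 1 in the repair list. The share of all tested genes called went from 12.9% to 6.82%. With 1 FPKM or more required in both groups, calls among germline genes went from 2 to 1, as Stra8 is listed at 0 in knockout cells. Of the 16 related genes called, 11 kept their call at a q of 0.01, 11 with a 2-fold minimum and 4 of the 15 with a score under the normal p. Of the 1469 calls over all tested genes, 775 held at a q of 0.01 and 849 with a 2-fold minimum. Pseudocounts of 0.1 and 1 put the log2 ratio of Dnmt3a at -2.14 and -2.10. A pseudocount added to both groups cannot reverse the sign of a ratio, and the median used for centring was only -0.0035. Calls rest on the deposited q, so these settings do not test them. The scaling of list medians to equal summed FPKM was chosen after seeing the data.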

Other observations

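Ahcy, the enzyme that clears the by-product of every methyltransferase reaction and is used by all cells, was listed at 0.495 FPKM in control cells and 0.402 FPKM in the knockout and was not tested, much as Tdg was. Kmt2a, a CXXC-domain methyltransferase, was listed at 11.9 and 9.50 FPKM, but its test failed in the authors' table. Dppa3, which guards maternal DNA methylation in the early embryo, was listed at 0 in control cells and 0.864 FPKM in the knockout, and Cxxc4 at 0.115 and 1.07 FPKM, both not tested.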
